A study of Mus musculus with 12 samples.

Results

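This account covers the transcripts of 7 myelin genes, Mbp, Mobp, Mog, Mag, Mal, Cldn11 and Ugt8a, in neurons collected by laser capture from the mouse entorhinal cortex. Every probe that the array's own annotation names for one of these genes was taken, which gave 15 of the 41174 probes on the array. Of the 15 probes, 6 (from 5 genes) were bright enough to be tested: 2 of Mbp and 1 each of Mobp, Mag, Mal and Cldn11. No probe of Mog or Ugt8a was.

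Myelin is the lipid-rich membrane that oligodendrocytes wrap around axons. Mbp and Mobp encode basic proteins that hold its membranes together at their inner faces, Mag encodes an adhesion protein of the innermost wrap, Cldn11 forms the tight junctions between wraps, Mal is a membrane-sorting protein, Mog lies on the outermost surface and Ugt8a makes the galactolipids of the sheath. The Mbp gene also gives golli forms from an upstream start, which are made in neurons and immune cells as well as in oligodendrocytes. In a capture aimed at neuronal bodies, the myelin genes serve as a reading of neighbouring oligodendrocytes and of myelinated fibres crossing the section.

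The samples were RNA from 500 neurons per region, dissected from Nissl-stained sections 12 µm thick and amplified before labelling. The mice were female C57BL/6 littermates aged 2 months. Mutants were Naglu-/-, lacking in the whole body the lysosomal enzyme that degrades heparan sulfate, and controls were Naglu+/-, so they too carried a mutant allele. Medial (MEC) and lateral (LEC) entorhinal cortex each had 3 pairs of a mutant and a control, and each pair was hybridised on 2 arrays with the dyes exchanged, 12 arrays in all. The labels do not state if equal pair numbers in MEC and LEC mean the same animals. Since the RNA of many cells was pooled, fewer oligodendrocytes and less RNA per oligodendrocyte cannot be told apart.

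A few facts of the arrays bear on every value. Between 48.2% and 67.9% of spots were well above background in the Cy3 dye and 14.8% to 30.4% in Cy5. All MEC arrays were scanned on 1 day and all LEC arrays on another, so region and scan day cannot be told apart. In the pairs numbered 2 of both regions, the direction in the authors' value table was opposite to the labelled dyes, and 5 of the 6 LEC files matched another LEC sample's column of that table. The probes of Naglu itself were not bright enough to be tested (log2 ratios of −0.05 to 0.09 over all pairs) and check no label. Arrays and directions follow the table, and the main mutant results are also given with the pairs numbered 2 turned as labelled. A pair's level averages both genotypes and does not depend on the direction.

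The probes of Mbp lie on the plus strand of chromosome 18 in build mm8, and the array's annotation assigns them to different transcripts. The upstream probe (A_52_P604195, chr18:82692965-82693024) is assigned to NM_001025245. The downstream probe (A_51_P349205, chr18:82719791-82719850) is assigned to NM_010777 and other variants. The middle probe (A_52_P329451, chr18:82707302-82709606), also assigned to NM_010777, spans 2305 genomic bases and so crosses a splice junction. It begins 14277 bases after the upstream probe and ends 10184 bases before the downstream one. Both outer probes were well above background in all 24 readings (12 arrays in 2 dyes). The middle probe was so in 11 readings, none of them in Cy5, and was not tested. The exon or untranslated region that each probe hits was not examined, since no annotation of mm8 was used here, nor was which golli forms each can read.

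The downstream Mbp probe was higher in MEC than in LEC. On the log2 scale of intensity, the mean of a pair's RNA samples was 8.19, 8.47 and 7.76 in the MEC pairs, against 7.21, 7.46 and 6.60 in the LEC pairs. The lowest MEC pair lay above the highest LEC pair, although LEC mutant 2, with 8.10, lay within the range of the single MEC RNA samples, 7.40 to 8.62. The difference was 1.05 (SE 0.23, 3 pairs against 3), a 2.07-fold higher intensity in MEC, with an adjusted p of 0.0146 by limma with Benjamini-Hochberg adjustment over 12981 probes. This call was lost when MEC pair 1 was left out (1.02, limma adjusted p = 0.0635) or MEC pair 2 was left out (0.88, limma adjusted p = 0.0572).

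The upstream Mbp probe went the opposite way. Its pair levels were 7.27, 7.32 and 7.37 in MEC, against 8.07, 8.40 and 8.41 in LEC, so that all LEC pairs were above all MEC pairs. Its 6 MEC and 6 LEC RNA samples did not overlap either. LEC was 1.96-fold higher (log2 difference −0.97, SE 0.09; limma adjusted p = 0.00064). The middle probe, at its low intensity, read 6.10, 6.13 and 6.17 in MEC, against 5.88, 6.00 and 5.96 in LEC. It entered a fit only when all 41168 probes with values were tested without a filter, where it was 0.19 higher in MEC (SE 0.04; limma adjusted p = 0.0241).

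The opposite course of the Mbp probes was also compared directly. The downstream value minus the upstream value was 0.92, 1.16 and 0.39 in the MEC pairs, against −0.87, −0.94 and −1.80 in the LEC pairs. The sign was therefore the same in all pairs of a region and opposite between regions. The zero point of this difference has no meaning, because the probes need not hybridise equally well. The change between regions was 2.02. The exact permutation p of 0.1 (two-sided), the smallest that 3 pairs against 3 allow, was fixed beforehand, since neither probe's pairs overlapped between regions. It adds no support to the separate tests of the probes. Both probes were read on the same arrays, and an effect of scan day on single probes was not tested.

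**Figure D1:**
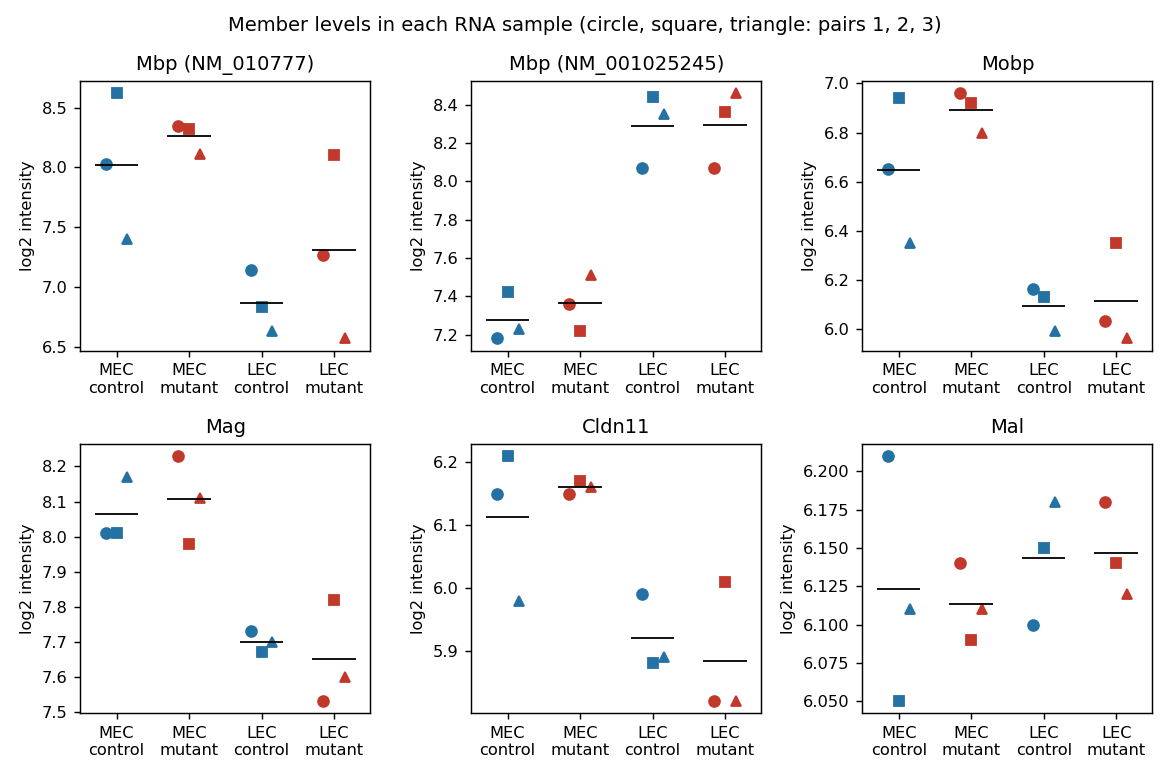
Log2 intensity of the 6 tested probes of the myelin genes in each of the 12 RNA samples, by region and genotype (blue control, red mutant; black lines are means of 3 samples, and the vertical scale differs between panels). The downstream Mbp probe (NM_010777), Mobp, Mag and Cldn11 were higher in MEC, the upstream Mbp probe (NM_001025245) was higher in LEC, and Mal overlapped.

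Mobp, the other basic protein of compact myelin, was measured by the probe A_52_P384465 (chr9:120030081-120030140, mm8, plus strand), well above background in 19 of 24 readings. Its pair levels were 6.81, 6.93 and 6.58 in MEC, against 6.09, 6.24 and 5.98 in LEC. The regions did not overlap, and LEC mutant 2, with 6.35, was at the level of the lowest MEC RNA sample, MEC control 3. MEC was 1.59-fold higher (log2 difference 0.67, SE 0.10; limma adjusted p = 0.00329). The other Mobp probes were well above background in 11 and 5 readings, were not tested, and differed by 0.05 and 0 on the log2 scale.

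Mag, the adhesion protein between axon and sheath, was read by A_51_P435428 (chr7:30607972-30608031, mm8, minus strand), well above background in all 24 readings. Its pair levels were 8.12, 8.0 and 8.14 in MEC, against 7.63, 7.74 and 7.65 in LEC. All MEC pairs were above all LEC pairs, and the 1.33-fold difference (log2 0.41, SE 0.06) passed with a limma adjusted p of 0.00254. The second Mag probe, A_52_P375021, was well above background in 12 readings and differed by 0 between regions.

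Cldn11 was near the limit of detection. Its probe A_51_P409452 (chr3:31354878-31354937, mm8, plus strand) was well above background in 9 of 12 MEC readings and 3 of 12 LEC readings. Pair levels were 6.15, 6.19 and 6.07 in MEC, against 5.90, 5.95 and 5.86 in LEC, without overlap, and the log2 difference was 0.23 (SE 0.05; limma adjusted p = 0.0134). Cldn11 met the detection filter through MEC alone, the region where it was higher, and most of its LEC readings were not well above background, so its call is given as a description and supports nothing. It no longer passed without MEC pair 2 (0.21, limma adjusted p = 0.051) or without both pairs numbered 2 (0.23, limma adjusted p = 0.104). At such intensities the added offset compresses ratios: with an offset of 10 in place of 50 the log2 difference was 0.62 for Cldn11 and 1.21 for Mobp.

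Mal did not pass the test. Its probe A_51_P499071 (chr2:127324671-127324698, mm8, minus strand) gave 6.18, 6.07 and 6.11 in MEC, against 6.14, 6.14 and 6.15 in LEC. The regions overlapped, with a difference of −0.03 (95% interval −0.13 to 0.08; limma adjusted p = 0.722). The probe was well above background in 14 readings, 12 of them in Cy3.

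Among the 5 member probes that met the detection filter in both regions, 3 were higher in MEC and 1 in LEC; Cldn11, which met it in MEC alone, was the other probe called as higher in MEC. Over all 12981 probes, 24.4% were called in this comparison, 11.2% as higher in MEC and 13.2% as higher in LEC. Of the 10862 probes that met the filter in both regions, 12.5% were called as higher in MEC and 14.2% as higher in LEC. The median of all probes was −0.016. Pairs of the regions did not overlap for 19.2% of all probes with MEC higher and for 23.7% with LEC higher. Each of the 5 called probes kept its direction under every other setting in which it was tested, which were 18 or 19 settings. With the RNA of 1 genotype alone, 2 of 6 passed: the upstream Mbp probe and Mag in controls, and the upstream Mbp probe and Mobp in mutants. Of all probes, 615 and 452 were called there, against 3162 with both genotypes.

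The 9 member probes that were not tested were well above background in 1 to 12 of 24 readings. Only 2 of these readings were in Cy5. Mog (A_52_P85040) was so in 3 readings, all of LEC samples, and the 3 probes of Ugt8a were so in 12, 6 and 1. Pair levels of Mog were 5.89, 5.92 and 5.95 in MEC, against 6.04, 5.84 and 5.93 in LEC. With values this close to background the regions overlapped, and no order can be read.

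The sequences upstream of the genes that were higher in MEC are shown to set the genes called in the same direction side by side. They are the 250 bases before the outermost annotated start in RefSeq (build GRCm38.p6), read 5′ to 3′ on the gene's strand. Capitals mark ACAAAG, a core bound by SOX proteins such as the oligodendrocyte regulator SOX10, and CTGGCAC, a form of the motif of the myelin regulator MYRF, each searched on both strands; the reverse complements are CTTTGT and GTGCCAG. The motifs were picked with the sequences in view.
Mobp, chr9:120149492-120149741, plus strand: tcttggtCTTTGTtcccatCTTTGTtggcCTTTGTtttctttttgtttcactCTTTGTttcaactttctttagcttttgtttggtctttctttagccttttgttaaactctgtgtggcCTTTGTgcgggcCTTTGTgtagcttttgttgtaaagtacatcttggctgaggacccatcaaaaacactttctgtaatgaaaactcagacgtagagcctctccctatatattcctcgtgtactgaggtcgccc
Mag, chr7:30914923-30915172, minus strand: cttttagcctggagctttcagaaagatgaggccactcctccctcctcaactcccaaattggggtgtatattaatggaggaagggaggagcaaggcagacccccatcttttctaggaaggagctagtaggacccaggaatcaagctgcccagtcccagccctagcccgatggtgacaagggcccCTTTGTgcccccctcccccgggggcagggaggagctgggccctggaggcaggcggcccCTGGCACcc
Cldn11, chr3:31149670-31149919, plus strand: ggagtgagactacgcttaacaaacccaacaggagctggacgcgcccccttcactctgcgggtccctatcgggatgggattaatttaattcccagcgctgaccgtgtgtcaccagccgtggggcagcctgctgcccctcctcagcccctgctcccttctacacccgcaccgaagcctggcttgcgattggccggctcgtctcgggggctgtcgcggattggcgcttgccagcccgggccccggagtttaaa

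ACAAAG or its reverse complement occurred in the windows of 16.5% of 27025 genes, and CTGGCAC in 4.2%. The Mobp window held 6 copies of the former, all on the opposite strand, which was the highest number in any of these windows and was reached by no other gene. Since the motifs were picked with this window in view, that rank is a description and tests nothing. The Mag window held 1 copy of each motif. The windows of Cldn11, Mal, Mog and Ugt8a held neither, and Mbp was not examined. A match is a run of letters and does not show that a protein binds there.

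The wider list of oligodendrocyte genes was described in the same comparison. Of 36 tested genes, each read by its brightest probe, 11 were called as higher in MEC (30.6%), 3 as higher in LEC (8.33%) and 22 did not pass. Of these calls, 3 in MEC (Evi2a, Plekhh1 and Lpar1) and 1 in LEC (Efnb3) were of genes that met the detection filter in that region alone. Among the 27 genes that met it in both regions, 8 were higher in MEC and 2 in LEC. The median difference was 0.13. Without both pairs numbered 2, 4 were higher in MEC and 2 in LEC, and without single pairs 4 to 10 and 2 to 4; the lowest number higher in MEC came without MEC pair 2. In controls alone the numbers were 5 and 1, and in mutants alone 2 and 0. Over all probes, 11.2% were called as higher in MEC and 13.2% as higher in LEC in the main fit, together 24.4%. The share of all probes called in either direction was 6.86% without both pairs numbered 2 and 15.2% to 22.3% without single pairs. It was 4.74% in controls alone and 3.48% in mutants alone.

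Cnp, an enzyme of the non-compact myelin channels, differed by 0.13 (SE 0.05) and missed the threshold with a limma adjusted p of 0.0693. Its levels were 6.42, 6.45 and 6.42 in MEC against 6.33, 6.31 and 6.24 in LEC, without overlap.

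Other genes of the list were higher in MEC. The differences were 0.90 for Adssl1, an enzyme of purine synthesis, 0.75 for Tspan2, a tetraspanin of oligodendrocytes, 0.57 for Septin4, a cytoskeletal GTPase, and 0.34 for Plekhb1. Smaller ones were 0.26 for Evi2a, 0.24 for Qdpr, which recycles tetrahydrobiopterin, and 0.17 for Plekhh1. The genes higher in LEC were Tmeff2 (−0.48, SE 0.06), Efnb3, an axon guidance ligand (−0.39, SE 0.07), and the oligodendrocyte transcription factor Sox10 (−0.39, SE 0.11), which was named after its value was seen. Over the genes named here that passed, the limma adjusted p ranged from 0.000303 for Adssl1 to 0.031 for Sox10. Of 4 tested genes of oligodendrocyte precursors, none passed by limma, and the closest was Gpr17 with −0.38 (limma adjusted p = 0.0695).

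**Figure D2:**
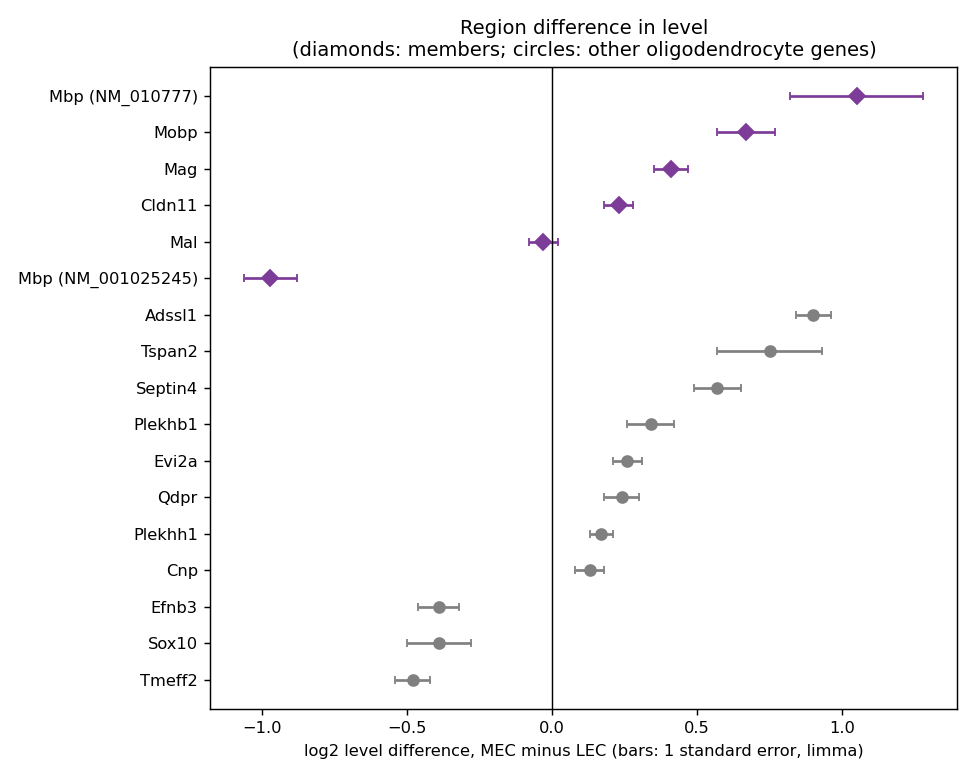
Log2 difference in level, MEC minus LEC, with 1 standard error from limma, for the 6 tested probes of the myelin genes (purple diamonds) and for 11 other oligodendrocyte genes, of which Cnp did not pass (grey circles). The upstream Mbp probe (NM_001025245) lies at −0.97 and the downstream one (NM_010777) at 1.05, while Adssl1 lies at 0.90.

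Markers of other cells were read on the same arrays. Of neuronal markers on the excitatory list, 15 of the 20 on the array were bright enough. So were 12 of 16 inhibitory neuron markers, 17 of 22 astrocyte, 14 of 20 microglial and 10 of 19 vessel markers. For blood, choroid plexus and meninges it was 11 of 17, and for oligodendrocyte precursors 4 of 12. The share bright enough therefore does not by itself test the labelled cell type. Of the excitatory list, 7 were higher in MEC and 1 in LEC. Nefl, a neurofilament, was 1.17 higher (SE 0.06) and Nrgn, a postsynaptic protein, −1.16 (SE 0.23). Inhibitory neuron markers were called 5 and 1 of 12, astrocyte markers 2 and 1 of 17, microglial markers 0 and 1 of 14, vessel markers 0 and 1 of 10, and markers of blood, choroid plexus and meninges 0 and 1 of 11. Neuronal markers thus also differed between regions, and their part in the members' difference was not tested.

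As a reading per RNA sample, each tested member probe was set to its own mean over the 12 RNA samples and the 6 deviations were averaged. The MEC values were 0.22, 0.13 and 0.15 in mutants 1 to 3 and 0.06, 0.23 and −0.11 in controls 1 to 3. The LEC values were −0.16, 0.15 and −0.23 in mutants and −0.12, −0.13 and −0.19 in controls. Of the MEC samples only control 3 was below 0, and of the LEC samples only mutant 2 was above 0. If the pairs numbered 2 are turned as their dyes are labelled, the values of mutant 2 and control 2 change places within each region, here and for every other list. The upstream Mbp probe enters this average with the opposite region difference. Cldn11 enters it although it met the detection filter in MEC alone. With 1 probe per gene, Mbp is read by its upstream probe alone. The values then ranged from −0.08 to 0.11 in MEC and from −0.13 to 0.08 in LEC, so the regions overlapped. MEC controls 1 and 3 were below 0 there, at −0.02 and −0.08.

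The average over the 36 other oligodendrocyte genes took only the brightest probe of each gene. Some of these genes met the detection filter in 1 region alone. This average ranged from −0.01 to 0.18 in MEC and from −0.21 to 0.07 in LEC. There too, MEC control 3 was the lowest MEC sample and LEC mutant 2 the highest LEC sample. LEC mutant 2 also had the highest values of the 12 for astrocyte markers (0.39), microglial markers (0.28) and markers of blood, choroid plexus and meninges (0.52). By a small margin it was highest for vessel markers too (0.14, against 0.13 in LEC controls 1 and 2). For excitatory neuron markers it read −0.15, within the LEC range of −0.22 to −0.08. The part of these other cells in the members' values of this sample was not tested.

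**Figure D3:**
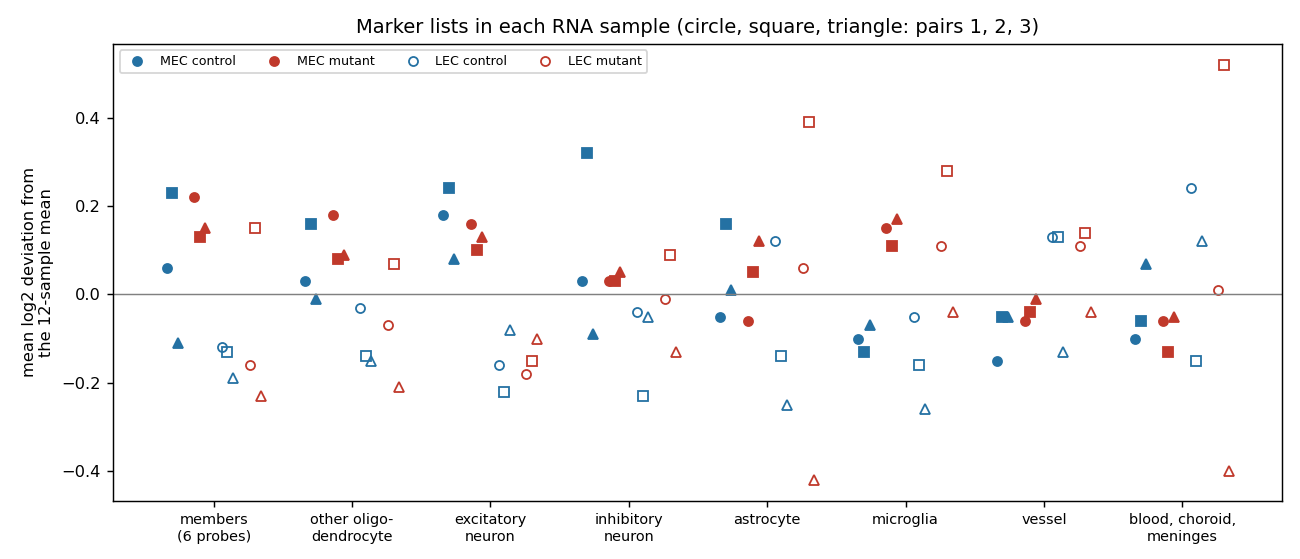
Mean log2 deviation from the 12-sample mean for the 6 tested probes of the myelin genes and for 7 marker lists, in each RNA sample (filled MEC, open LEC; blue control, red mutant). LEC mutant 2, the open red square, is the highest sample for astrocyte, microglial and blood, choroid plexus and meningeal markers, and by a small margin for vessel markers. It is the only LEC sample above 0 for the myelin probes.

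Across the 12 RNA samples, 3 of the members varied together. The Pearson correlation of Mobp was 0.93 with the downstream Mbp probe and 0.96 with Cldn11. After each region's mean was subtracted these values were both 0.85, while those of Mag with the same 3 probes were 0.14 to 0.23. The Mbp probes correlated with −0.73 over all samples and −0.03 within regions. These are descriptions, since the 2 RNA samples of a pair share arrays.

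Genes whose pattern over the 12 RNA samples was among the most like that of the downstream Mbp probe, of 10926 compared, were Cd9 (r = 0.933), Ggh (0.931), Il33 (0.922), Cyfip1 (0.919), Rangrf (0.912), Tsc22d3 (0.91), Kcnj10 (0.907), AI597479 (0.905) and Wdr25 (0.901). Cd9 is on the list of other oligodendrocyte genes, and Kcnj10 is a potassium channel of glia. This search was added after the values had been seen. The genes most like the upstream probe were Asic1 (0.975), Ube2r2 (0.973), Pcdh8 (0.972), Gpc3 (0.968), Tox3 (0.967), Dmwd (0.963), Emc1 (0.957), Rp2 (0.955), Pomgnt2 (0.955) and Tspan33 (0.954), none of which is on that list. After the region means were subtracted, r was 0.761 to 0.888 for the genes named for the downstream probe and 0.555 to 0.741 for those of the upstream probe. Asic1 is a neuronal acid-sensing channel and Pcdh8 a protocadherin of synapses. Asic1, Pcdh8 and Kcnj10 were picked for description. The cell types of the other genes were not examined, so the names do not show which cells gave either Mbp signal.

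The genes most like the mean of the members, each gene read by its brightest probe, were Bcap29 (0.946), Atp6v1g1 (0.905), LOC669773 (0.896), Sesn1 (0.896), Abracl (0.892), Ap3m1 (0.892), Gatm (0.89), AW549877 (0.887), 2900092D14Rik (0.886) and Lamtor3 (0.886). Within regions their r was 0.732 to 0.887. That mean takes Mbp from the upstream probe. Gatm makes the precursor of creatine.

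Mutants were then compared with controls. In MEC, in LEC, in their average and in the difference between regions, 0 of the 6 tested member probes passed, and 0% of all 12981 probes did. By unadjusted p under 0.05, limma gave 0 of 6 members in each comparison. Over all probes it gave 135 (1.04%) in MEC, 199 (1.53%) in LEC, 274 (2.11%) in the average and 71 (0.547%) in the difference.

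These unadjusted counts depended on the direction given to the pairs numbered 2. With those pairs turned as labelled, 2 of the same 6 probes were under 0.05 in MEC (against 11.4% of all probes), 1 in LEC (9.53%), 1 in the average (11.8%) and 4 in the difference (9.04%). With files and dyes as labelled the counts were 3 in MEC (12.8%), 0 in LEC (1.72%), 3 in the average (5.87%) and 1 in the difference (6.71%). Without those pairs they were 3 (3.42%), 0 (3.78%), 2 (6.15%) and 2 (1.66%). No member passed after adjustment in any of these fits, and the lowest limma adjusted p of a member in them was 0.283, for the upstream Mbp probe in the average with the pairs turned.

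For the downstream Mbp probe the log2 ratio of mutant over control was 0.31, −0.30 and 0.71 in the MEC pairs, against 0.13, 1.27 and −0.06 in the LEC pairs. LEC pair 2 had the highest ratio, and both of its arrays showed it, with 1.01 and 1.53. Over the 3 MEC pairs the mean was 0.24 (SE 0.28, 95% interval −0.41 to 0.89), and over the 3 LEC pairs it was 0.45 (SE 0.28, interval −0.20 to 1.10). Without LEC pair 2 the LEC mean was 0.04, and with the pairs numbered 2 turned as their dyes are labelled it was −0.40. The difference between regions was −0.21, and 0.84 with those pairs turned (SE 0.35; limma adjusted p = 0.548). In LEC pair 2, the mean ratio was 0.53 for astrocyte markers, 0.68 for markers of blood, choroid plexus and meninges, 0.31 for inhibitory and 0.07 for excitatory neuron markers, 0.21 for the other oligodendrocyte genes, 0.01 for vessel markers and −0.14 for precursor markers. Microglial markers read 0.44 there and 0.17 to 0.25 in the other 5 pairs. The part of these cells in the Mbp ratio was not tested.

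The upstream Mbp probe had ratios of 0.18, −0.20 and 0.28 in MEC, against 0, −0.08 and 0.11 in LEC. In every pair its dye-swapped arrays had opposite signs, such as 0.59 and −0.23 in MEC pair 1. Each of these ratios is thus the mean of arrays that disagreed, which limits every value derived from them. The MEC mean was 0.09, and 0.22 with the pairs numbered 2 turned (SE 0.05; limma unadjusted p = 0.00353, adjusted p = 0.42). The upstream ratio in LEC pair 2 was near 0 (−0.46 and 0.30 on its arrays), where the downstream probe had its highest. The downstream ratio minus the upstream ratio was 1.35 in that pair and between −0.17 and 0.43 in the other 5. The difference of this quantity between regions was −0.29, with an exact permutation p of 0.8 (two-sided); with the pairs numbered 2 turned it was 0.68, with an exact p of 0.3.

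Mobp had ratios of 0.32, −0.01 and 0.45 in MEC, against −0.13, 0.22 and −0.03 in LEC. The MEC mean was 0.25 (SE 0.11), with an unadjusted p of 0.0513 and an adjusted p of 1 by limma. Under 12 of 20 other settings its unadjusted p was under 0.05, and it did not pass after adjustment in any. The LEC mean was 0.02 (SE 0.11), and the difference between regions was 0.23 (95% interval −0.13 to 0.59; limma unadjusted p = 0.171), and 0.39 with the pairs numbered 2 turned (SE 0.12; limma unadjusted p = 0.0151, adjusted p = 0.548). With the scanner software's processed signals the MEC mean of Mobp was 0.84.

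Mag, Cldn11 and Mal had ratios between −0.20 and 0.22 in all pairs. Averaged over both regions, the 95% intervals were −0.16 to 0.15 for Mag, −0.13 to 0.14 for Cldn11 and −0.10 to 0.10 for Mal. These intervals hold for the table's direction, and opposite effects in the regions would cancel in them. LEC pair 2 read 0.16 for Mag and 0.14 for Cldn11. With the pairs numbered 2 turned as labelled, these change sign, and all LEC pairs of both genes were below 0. The share of all probes with 1 sign in all LEC pairs was not counted in that direction. Of the 36 other oligodendrocyte genes, 28 had a ratio above 0 in the average over regions and none passed by limma. Their median was 0.03, against 0.001 for all probes. The share of all probes above 0 was not counted. The mean ratio of the list was 0.15, −0.07 and 0.10 in the MEC pairs, against −0.04, 0.21 and −0.06 in the LEC pairs. Its sign thus differed between pairs, and the genes share these pairs. The count above 0 was not taken with the pairs numbered 2 turned.

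**Figure D4:**
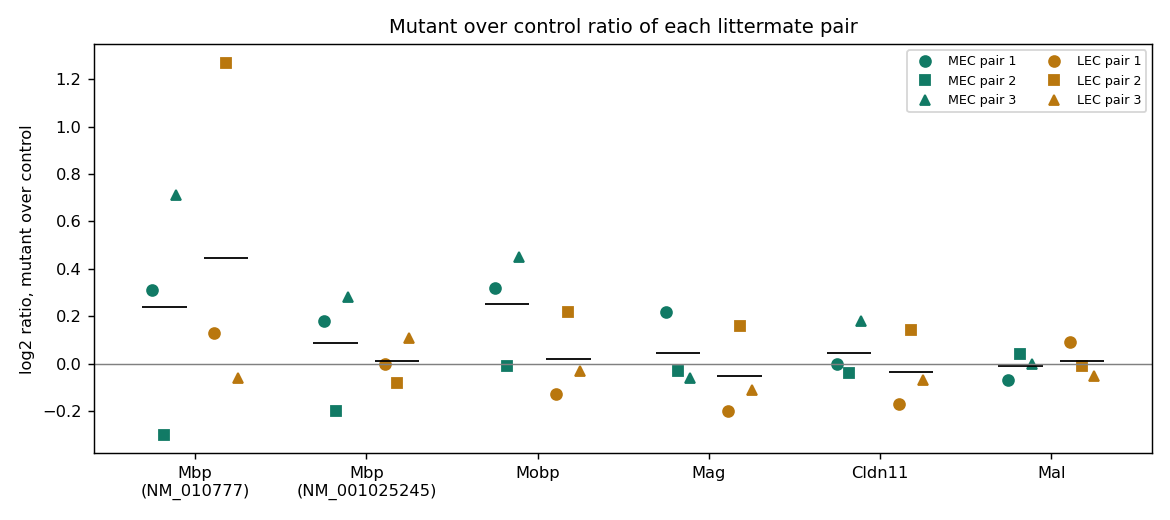
Log2 ratio of mutant over control for the 6 tested probes of the myelin genes in each littermate pair (green MEC, ochre LEC; black lines are means of 3 pairs). Most ratios lie between −0.30 and 0.45; the downstream Mbp probe (NM_010777) reaches 0.71 in MEC pair 3 and 1.27 in LEC pair 2.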

How the data were processed

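Per the file headers, the authors' scanner software (Agilent Feature Extraction 9.5.1.1; 8.5.1.1 in the submitters' processing notes) gave raw and processed intensity values per spot and dye, a log10 ratio and flags of 0 or 1. The authors' deposited value table holds log2 ratios per array, with centring and direction not stated (column medians −0.4 to 0.4). Its columns were matched to arrays over 9166 bright spots (correlation 0.9952 to 0.9993 in size, next best at most 0.657), which gave each array's identity and direction.

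In R (4.3.3), with the packages limma (3.58.1) and data.table (1.17.8), background was corrected by normexp (offset 50), dyes were balanced by loess and mean intensities quantile-normalised. The 2 arrays of a pair were averaged, so 3 pair means per region were the replicates. A probe was kept if 4 or more of the 6 readings of 1 region and genotype were well above background. Limma shared the spread over 6 pairs. Its p-values are two-sided, adjusted by Benjamini-Hochberg over all probes (threshold 0.05), and measure only the spread between these samples, whose number limits the precision. The fits were also run on simulated data of independent normal noise with known shifts. These held no effect of scan day or dye, so they do not check the fits against such effects.

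Named were all member probes; of the other oligodendrocyte genes Cnp and up to 10 that passed, by adjusted p; and the 10 genes most like the members' mean and the brightest Mbp probe. Gpr17, Nefl and Nrgn were named after their values were seen. An item that this rule would name is not reported here. Symbols follow RefSeq (GRCm38.p6) by accession or symbol. Members and lists were chosen with earlier results of these data known.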

Additional observations from a re-analysis of the deposited data

Results flagged for a closer look

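Among 18 groups of 6 values (the ratios over all pairs, and the levels over the RNA samples of a region, for each of the 6 tested probes), 1 held a sample far from the others by Dixon's criterion, which chance alone meets in about 1 group of 20. For Cldn11 in MEC, control 3 read 5.98 on the log2 scale, and the other 5 MEC samples read 6.15 to 6.21.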

How the results depend on the processing

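Of 6 tested member probes, 5 differed in level between regions, counting Cldn11, which met the detection filter in MEC alone; the count was 2 with control RNA alone, 2 with mutant RNA alone, and 3 to 5 with 1 pair left out (3 without MEC replicate 2). Over all probes the calls in this comparison fell from 3162 to 615, 452 and, without both pairs numbered 2, 891; without single pairs they were 1976 to 2893. The members' mean deviation spanned 0.452 between RNA samples and 1.071 with processed signals. No member passed in any mutant comparison under any setting, although all-probe calls rose from 0 to 6 in MEC, 1 in LEC and 7 in the average with arrays as units, and to 1 in the average with an offset of 10. Unadjusted p-values under 0.05 over all probes in MEC rose from 135 to 1512 with the pairs numbered 2 turned as labelled. With the replicate number as a block, 5 members passed in level and 0 in the average and in the region difference, and 2770 probes passed in level; same-numbered pairs correlated between −0.35 and 0.01, which gives no sign of a pairing, and the labels leave it open. A block by slide or scan day was not run, since each slide held 1 array and each scan day 1 region; an average over regions fitted alone was not run either. With 1 brightest probe per gene, Mbp is represented by its upstream probe and 4 of 5 members passed. Dim Cy5 signals limit Cldn11, Mal, Mog and Ugt8a.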
